A study of Mus musculus with 4 samples.

Results

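The genes described here were 10 innate sensing genes, chosen by name from the 32272 gene rows of a single-nucleus multiome matrix of mouse bone marrow progenitors. They were the Toll-like receptors Tlr2, Tlr4, Tlr7 and Tlr9, the shared adaptor Myd88, the interleukin-1 (IL-1) receptor chains Il1r1 and Il1rap, the inflammasome sensors Nlrp3 and Mefv, and the cytokine Tnf. Of the 174339 accessible peaks in the same matrix, 178 lay within 50 kb of the annotated start interval of one of these genes and were assigned to it.

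Toll-like receptors bind conserved microbial molecules. TLR2 and TLR4 do so at the cell surface, for lipoproteins and lipopolysaccharide respectively, and TLR7 and TLR9 in endosomes, for RNA and DNA. The IL-1 receptor is made of a ligand-binding chain, encoded by Il1r1, and an accessory chain, encoded by Il1rap, and both receptor families signal through the adaptor MyD88 to NF-kB, a transcription factor that activates genes such as Tnf and Nlrp3. NLRP3 and pyrin, the product of Mefv, are cytosolic sensors that assemble inflammasomes, the complexes that activate caspase-1 and release mature IL-1β. Hematopoietic stem and progenitor cells carry several of these receptors and can respond directly to microbial products and to IL-1.

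The study sorted Lin-cKit+ bone marrow cells, which are depleted of mature lineages and enriched in stem and progenitor cells, from male C57BL/6 mice aged 8 weeks, pooling 5 mice for each sample. RNA and accessible chromatin (ATAC) were read from the same nuclei in unligated control mice (Ctrl) and in mice whose second molars carried a silk ligature for 14 d (Lig), a model of periodontitis. The labels list 4 samples, an RNA and an ATAC sample for each treatment. All of them were deposited in 1 matrix whose barcodes end in 1 or 2, and no label ties an ending to a treatment, so the endings were treated as 2 libraries in no group and no comparison of Lig with Ctrl was made. Each value is therefore given for both libraries side by side, without a test, and an interval in parentheses is a 95% exact Poisson interval that covers counting error only.

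After filtering, 13619 of 18961 barcodes were kept as nuclei, 5905 in library 1 and 7714 in library 2, with a median of 1641 and 1516.5 unique molecular identifiers (UMIs, each standing for 1 captured RNA molecule) and 19471 and 16284 ATAC counts per nucleus. The libraries shared 146 barcode sequences, 72 of them among kept nuclei. Transcripts of the ribosomal RNA locus took 43.0% of UMIs in library 1 and 53.2% in library 2, and RNA levels are UMIs per 1000000 UMIs (CPM), these transcripts included. Kit, which encodes the receptor used for the sort, was at 138 and 73.4 CPM. Mature neutrophil markers summed to 58.3 and 73.6 CPM over all nuclei and were highest in NeuP-like nuclei, at 1151 and 814 CPM, whereas macrophage markers summed to 6.90 and 8.37 CPM. The sum of 5 endothelial markers, none of them at 0, was 124 and 77.9 CPM over all nuclei and ran from 28.8 to 216 CPM across populations in library 1 and from 34.6 to 198 CPM in library 2.

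Nuclei were clustered without the 10 genes, without 92 related pathway genes and without the 178 peaks, so that the levels below did not shape the clusters. From marker genes, 12 classes were named: stem cells (HSC-like), granulocyte-monocyte progenitors (GMP-like), neutrophil progenitors (NeuP-like), common monocyte progenitors (cMoP-like), conventional and plasmacytoid dendritic progenitors (cDCP-like, pDCP-like), erythroid and megakaryocyte progenitors (EryP-like, MkP-like), basophil progenitors (BaP-like), the 2 B lymphoid classes (pro-B-like, B-like) and progenitors of NK and T cells (pro-NK/T-like). The 12 classes formed 7 lineages. Of 6 clusters left unnamed, clusters 0 and 4 were the only ones in which one of the 10 genes was called higher below. Cluster 0, the largest with 4201 nuclei, was led by Nrg1, F13a1 and Itga1 and had 2 raised cMoP markers, and it held 25.7% of nuclei in library 1 and 34.8% in library 2. Cluster 4, with 1002 nuclei, was led by Cmah, Mn1 and Sema3d and had 5 raised multipotent progenitor (MPP) markers. Cluster 5, with 872 nuclei, was led by Gm47771, Ephb2 and Rtn4rl1, and only 95 nuclei remained in the pDCP-like class, so that its intervals are wide. Cluster 9, with 389 nuclei, had 8 raised pro-B markers, but none was among its 10 leading genes.

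The sequences of 3 promoters are shown first, for Tnf and Nlrp3 because they had the most UMIs of the genes higher in cluster 0 below, and for Tlr9 because its promoter was accessible with hardly any RNA. They come from the RefSeq promoter table on GRCm38.p6, span 250 bases before to 50 after the transcript start, and were available for 8 of the 10 genes. Capitals mark matches, on either strand, to GAGGAAG (bound by PU.1, a myeloid and B-lineage factor), TGANTCA (AP-1), GGGANNTTC (NF-kB), CCCNNGGG (EBF1, a B-lineage factor) and AGATAA (bound by GATA factors).
Tnf, chr17:35201958-35202257, minus strand: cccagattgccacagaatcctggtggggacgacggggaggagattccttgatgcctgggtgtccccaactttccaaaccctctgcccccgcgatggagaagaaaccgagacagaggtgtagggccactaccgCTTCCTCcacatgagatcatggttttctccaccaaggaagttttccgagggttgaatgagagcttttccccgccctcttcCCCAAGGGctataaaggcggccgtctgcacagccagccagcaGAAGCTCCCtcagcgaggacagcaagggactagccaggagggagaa
Nlrp3, chr11:59542436-59542735, plus strand: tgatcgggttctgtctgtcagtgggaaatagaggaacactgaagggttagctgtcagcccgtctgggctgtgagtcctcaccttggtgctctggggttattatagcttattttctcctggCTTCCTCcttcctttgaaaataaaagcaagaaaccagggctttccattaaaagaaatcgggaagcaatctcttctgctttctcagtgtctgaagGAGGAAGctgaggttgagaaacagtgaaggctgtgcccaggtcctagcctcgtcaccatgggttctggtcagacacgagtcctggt
Tlr9, chr9:106222348-106222647, plus strand: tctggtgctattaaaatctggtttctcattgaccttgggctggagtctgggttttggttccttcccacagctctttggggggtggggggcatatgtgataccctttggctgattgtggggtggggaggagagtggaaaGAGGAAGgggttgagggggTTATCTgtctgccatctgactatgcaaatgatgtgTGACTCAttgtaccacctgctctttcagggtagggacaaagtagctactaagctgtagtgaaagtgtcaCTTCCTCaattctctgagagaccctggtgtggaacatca
The Nlrp3 promoter shown and the Tlr9 promoter each held 2 PU.1 matches. A further Nlrp3 promoter in the table (chr11:59541319-59541618) held none, with 1 EBF1 and 1 GATA match. Of 32841 promoters of the same length, 13.6% held at least 1. The Tnf promoter held 1 NF-kB match, as did 3.94% of promoters, together with 1 PU.1 and 1 EBF1 match. CpG dinucleotides were absent from the Tlr9 promoter, whereas the Il1rap promoter had an observed-to-expected CpG ratio of 0.851, above 83.3% of promoters.

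RNA of the innate sensing genes was sparse in both libraries. Nlrp3 had 245 and 225 UMIs in libraries 1 and 2, or 23.8 (20.9 to 27.0) and 17.9 (15.7 to 20.5) CPM. Tnf had 193 and 296 UMIs, or 18.7 (16.2 to 21.6) and 23.6 (21.0 to 26.5) CPM, and Il1rap had 221 and 137 UMIs, or 21.5 (18.7 to 24.5) and 10.9 (9.17 to 12.9) CPM. Between the libraries the Poisson intervals of Il1rap and of Nlrp3 were apart, and those of Tnf overlapped. On this scale most genes were lower in library 2, with a median ratio of 0.646. Il1r1 had 127 UMIs in each library (12.3 and 10.1 CPM), and Mefv had 93 and 80 (9.03 and 6.38 CPM). Tlr2 had 75 and 79 UMIs, Myd88 58 and 80, Tlr4 43 and 44, and Tlr7 35 and 22. Tlr9 was nearly undetected, with 4 and 2 UMIs, and was the only gene below the minimum of 20 UMIs in each library that a comparison required. At most 4 UMIs of any of the 10 genes were found in 1 nucleus.

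Because nuclear RNA includes introns, levels were compared between genes only per kilobase of gene span. This scale takes UMIs to grow with gene span, which was not tested, so the order of genes depends in part on span itself. On that scale Tnf, a short gene of 2.63 kb, was highest, at 7.14 and 8.99 CPM per kb. Tlr2 at 1.33 and 1.15 CPM per kb, Myd88 at 1.03 and 1.16, Nlrp3 at 0.937 and 0.707, and Mefv at 0.830 and 0.586 formed the next group, in which the scaled intervals of Tlr2 and Myd88 overlapped in both libraries, as did those of Nlrp3 and Mefv. Il1rap, the longest gene at 148 kb, was at 0.145 and 0.074 CPM per kb, Il1r1 at 0.134 and 0.110, and Tlr7 at 0.133 and 0.068. Tlr4, which spans 103 kb, was lowest at 0.041 and 0.034 CPM per kb, and its scaled interval overlapped that of Tlr9 in both libraries.

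The first comparison asked in which populations each gene was higher or lower than in all other nuclei. A gene was called higher when its CPM ratio was at least 2 in both libraries, and lower when it was at most 0.5 in both. The 4 genes Tnf, Nlrp3, Mefv and Tlr2 were higher in cluster 0, out of 9 genes compared, whereas 0.499% of the 10614 genes that could be compared were higher there. Il1r1 and Tlr7 were higher in cluster 4 (3.72% of all genes), and Il1r1 was higher in the stem lineage (2.85% of all genes). No innate sensing gene was higher in the granulocyte-monocyte lineage, formed by GMP-like, NeuP-like and cMoP-like nuclei (1.7% of all genes), nor in the erythroid-megakaryocyte (3.82% of all genes) or B lymphoid lineage (4.65% of all genes). In cluster 5 none was higher (0.518% of all genes) and none lower (4.74% of all genes). The absence of higher calls in the granulocyte-monocyte lineage depended on the settings. At resolution 0.4, where cluster 0 joined the GMP-like nuclei, Tlr2, Nlrp3, Mefv and Tnf were higher in it, and with at least 500 genes per nucleus Tlr2, Nlrp3 and Tnf were. The Tnf level of this lineage, both libraries pooled, was then 33.6 and 42.3 CPM in place of 14.1, and that of Nlrp3 was 32.0 and 47.9 CPM in place of 19.9. With at least 500 genes per nucleus, a cluster of 1828 nuclei was named cMoP-like and so counted in this lineage. Nrg1, F13a1 and Itga1, which led cluster 0, were among its leading genes.

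**Figure D1:**
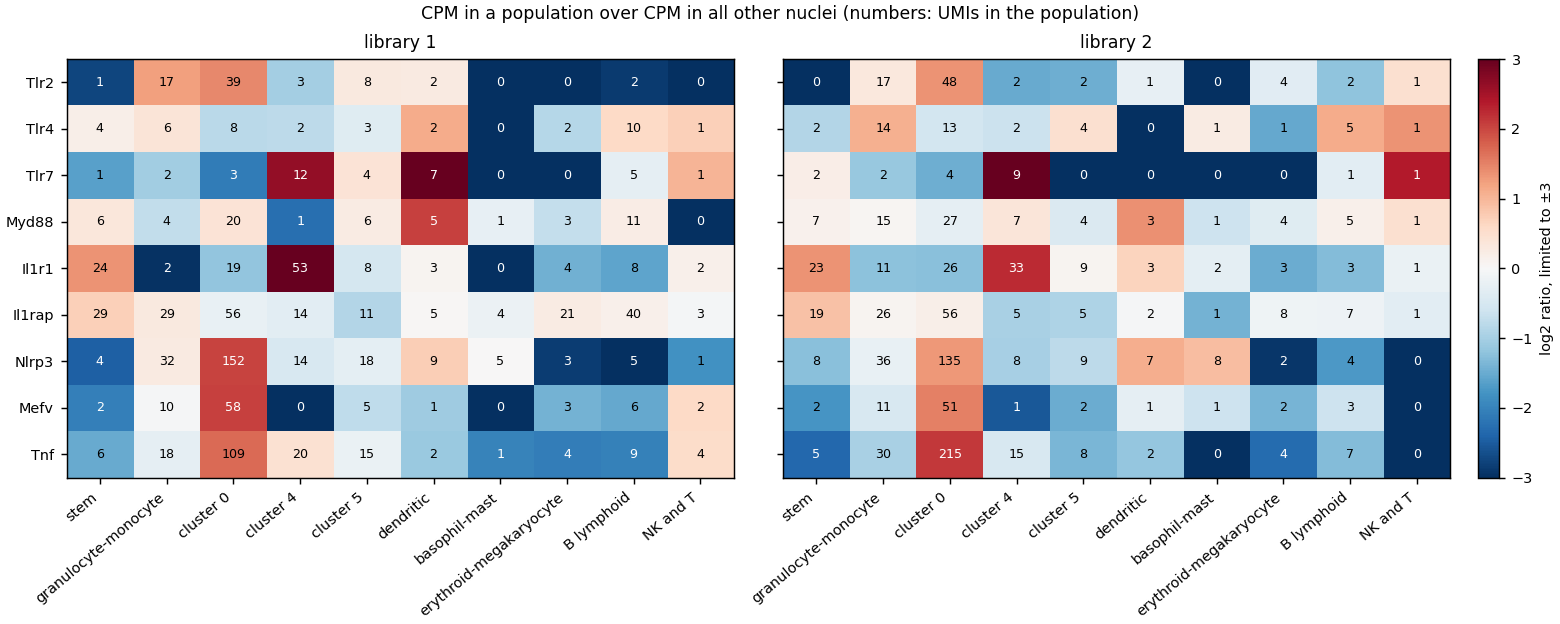
Each cell gives the log2 ratio of the CPM of a gene (rows) in a population (columns) to its CPM in all other nuclei, with the UMIs of that population printed in the cell, for library 1 on the left and library 2 on the right. Tlr9 is left out for its low count, colors stop at 8-fold either way, and Tlr2, Nlrp3, Mefv and Tnf are red in cluster 0 in both panels.

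Tnf (ENSMUSG00000024401, chr17:35199381-35202007, minus strand) encodes the inflammatory cytokine TNF. In cluster 0 it was at 37.1 (30.5 to 44.8) CPM from 109 UMIs in library 1 and at 45.1 (39.3 to 51.6) CPM from 215 UMIs in library 2, against 11.4 and 10.4 CPM in the other nuclei, ratios of 3.25 and 4.33. The small cMoP-like class was at 87.1 (39.8 to 165) and 69.3 (29.9 to 137) CPM, from 9 and 8 UMIs, and its intervals overlapped those of cluster 0. Cluster 4 was at 25.0 (15.3 to 38.7) and 17.4 (9.72 to 28.6) CPM, overlapping cluster 0 in library 1 and below it in library 2. HSC-like nuclei held 6 and 5 Tnf UMIs (6.96 and 4.97 CPM), with intervals below those of cluster 0. A Tnf UMI was found in 6.25% (5.09 to 7.59, Clopper-Pearson) of cluster 0 nuclei in library 1 and in 6.71% (5.80 to 7.73) in library 2. In EryP-like nuclei, an erythroid class taken as the background for a leukocyte cytokine, the share was 1.17% and 0.940%, with a median of 1579.5 and 1319 UMIs per nucleus against 1846.5 and 1688 in cluster 0. The sum of 7 macrophage markers was 9.54 and 9.02 CPM in cluster 0 and reached 29.0 and 34.6 CPM in cMoP-like nuclei, where it was highest, and its part in the Tnf level was not tested.

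Nlrp3 (ENSMUSG00000032691, chr11:59541568-59566956, plus strand) was higher in cluster 0 as well. Its level in cluster 0 was 51.8 (43.9 to 60.7) CPM in library 1 and 28.3 (23.8 to 33.5) in library 2, intervals that did not overlap. Over all nuclei most genes had a lower CPM in library 2, with a median ratio of 0.646. Both Nlrp3 levels in cluster 0 exceeded the other nuclei at 12.6 and 11.6 CPM, by 4.10-fold and 2.45-fold. The cMoP-like class was at 67.7 (27.2 to 139.6) and 129.9 (72.7 to 214) CPM, so that it lay above cluster 0 in library 2 and overlapped it in library 1. In cDCP-like nuclei Nlrp3 was at 50.6 and 47.6 CPM, from 7 UMIs in each library. In NeuP-like nuclei it was at 81.5 (47.5 to 130.5) CPM in library 1, the highest class there, and at 13.9 (5.09 to 30.2) in library 2, where it was below cluster 0 in value. Nlrp3 was low in pro-B-like nuclei, at 2.62 and 4.79 CPM from 4 and 3 UMIs, and in EryP-like nuclei, at 3.24 and 4.08 CPM from 2 UMIs in each library.

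Mefv (ENSMUSG00000022534, chr16:3707218-3718097, minus strand) and Tlr2 (ENSMUSG00000027995, chr3:83836272-83841767, minus strand) were higher in cluster 0 too. With at least 500 genes per nucleus Mefv was called higher in no population, and with ATAC limits on halved counts Tlr2 was called higher in none. Mefv was at 19.8 (15.002 to 25.5) and 10.7 (7.97 to 14.1) CPM in cluster 0, against 4.76 and 3.73 CPM elsewhere, ratios of 4.15 and 2.87. Tlr2 was at 13.3 (9.45 to 18.2) and 10.1 (7.43 to 13.4) CPM, against 4.89 and 3.99 CPM, ratios of 2.72 and 2.53. The cMoP-like class had the highest Tlr2 level in both libraries, 77.4 (33.4 to 153) and 43.3 (14.1 to 101) CPM from 8 and 5 UMIs, above the intervals of cluster 0. HSC-like nuclei held 1 Tlr2 UMI in the 2 libraries together, and cluster 4 held 5.

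The same 4 genes, Tlr2, Nlrp3, Mefv and Tnf, were lower in the stem lineage (2.99% of all genes were lower there). In the erythroid-megakaryocyte lineage 5 of 9 genes were lower, namely Tlr7, Il1r1, Nlrp3, Mefv and Tnf (5.75% of all genes), and in the B lymphoid lineage 4 were, namely Tlr2, Il1r1, Nlrp3 and Tnf (6.28% of all genes). These lower values rested on 0 to 9 UMIs per lineage and library. The other nuclei included cluster 0, with 109 of 193 and 215 of 296 Tnf UMIs and 152 of 245 and 135 of 225 Nlrp3 UMIs. They also included cluster 4, with 53 and 33 of the 127 Il1r1 UMIs in each library. A lower call can thus in part restate a higher call in those clusters, and lineages were not compared without them. Basophil-mast nuclei were lower in Tlr2, Tlr7 and Tnf (11.7% of all genes), from at most 1 UMI of a gene in a library. Tnf was the 1 gene lower in the dendritic lineage (12.6% of all genes), from 2 UMIs in each library, and Nlrp3 the 1 gene lower in the NK and T lineage (15.2% of all genes), from 1 and 0 UMIs. Of these 18 calls and the 2 of the granulocyte-monocyte lineage, 9 were kept under all 10 alternative settings, namely Tlr2, Nlrp3 and Mefv in the stem lineage, Nlrp3 and Tnf in the erythroid-megakaryocyte, Il1r1 and Nlrp3 in the B lymphoid, Tnf in the basophil-mast and Nlrp3 in the NK and T lineage. The other 11 were lost under 1 to 6 settings, among them that of Tnf under 3 in the stem and 3 in the dendritic lineage. Of the 10 settings, the 1.5-fold threshold and the absence of a UMI minimum only loosened the rule, so no call could be lost under them. Among the smaller unnamed clusters, cluster 9 was lower in Tlr2, Tlr7, Il1r1, Nlrp3 and Tnf (12.3% of all genes), from at most 2 UMIs of a gene in a library. Cluster 17, with 85 nuclei, was lower in Tlr2, Tlr4, Tlr7, Myd88, Il1rap and Nlrp3 (35.2% of all genes), from at most 1 UMI, and cluster 7 was lower in Tlr4 (7.07% of all genes), from 0 and 1 UMIs.

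Il1r1 (ENSMUSG00000026072, chr1:40225080-40317257, plus strand), the signaling chain of the IL-1 receptor, had another distribution. It was highest in cluster 4, at 66.4 (49.7 to 86.8) CPM from 53 UMIs in library 1 and 38.2 (26.3 to 53.7) CPM from 33 UMIs in library 2, which was 8.52-fold and 4.74-fold over the other nuclei. HSC-like nuclei were at 27.9 (17.8 to 41.4) and 22.9 (14.5 to 34.3) CPM, or 2.55-fold and 2.54-fold. With both libraries pooled the stem lineage was at 25.2 CPM, and at 58.0 with at least 500 genes per nucleus, 37.6 at resolution 0.4 and 47.5 with the ribosomal RNA locus left out of the totals. The stem call of Il1r1 was lost with at least 500 genes per nucleus and with all features kept in the clustering. At resolution 0.4 the HSC-like cluster held 2152 nuclei in place of 1163. Cmah, Mn1 and Sema3d, which led cluster 4, were then among its leading genes. In library 2 the intervals of cluster 4 and HSC-like nuclei overlapped, and in library 1 they did not. The endothelial markers summed to 182 and 127 CPM in cluster 4, and their part in its Il1r1 and Tlr7 levels was not tested. Il1r1 was lower in the granulocyte-monocyte lineage, at 1.76 and 4.84 CPM, where Tlr7 was lower as well (4.19% of all genes were lower there). The call of Il1r1 was lost under 3 of the 10 alternative settings and that of Tlr7 under 6. Both genes were also lower in cluster 0 (5.74% of all genes), with Il1r1 at 6.47 and 5.46 CPM there.

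Its partner chain Il1rap (ENSMUSG00000022514, chr16:26581704-26730117, plus strand) was called higher or lower in no lineage, and lower only in cluster 17, from 1 and 0 UMIs. It was at 33.7 (22.5 to 48.3) and 18.9 (11.4 to 29.5) CPM in HSC-like nuclei, at 27.9 and 12.2 CPM in GMP-like nuclei and at 22.2 and 9.58 CPM in pro-B-like nuclei, and intervals of all 3 classes overlapped within each library. Across the 7 lineages and clusters 0, 4 and 5, its library 1 ratio to the other nuclei ran from 0.541 to 1.65, and its library 2 ratio ran from 0.377 to 1.85. In cluster 4, where Il1r1 was highest, Il1rap was at 17.5 (9.58 to 29.4) CPM in library 1 and at 5.79 (1.88 to 13.5) CPM in library 2.

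Among the other receptors, Tlr7 (ENSMUSG00000044583, chrX:167304929-167330558, minus strand) was higher in cluster 4, at 15.03 (7.76 to 26.2) and 10.4 (4.76 to 19.8) CPM from 12 and 9 UMIs, ratios of 6.20 and 9.36. The call was lost with at least 500 genes per nucleus and with high doublet scores removed. Outside cluster 4 Tlr7 had 23 and 13 UMIs, so that in library 2 it reached the minimum of 20 UMIs only through this cluster. It was also called higher in the NK and T lineage (5.56% of all genes), but from 1 UMI in each library, and this call was lost under 5 of the 10 alternative settings. In pDCP-like nuclei, progenitors of the plasmacytoid dendritic cells that are known for sensing through TLR7 and TLR9, Tlr7 was at 77.8 (31.3 to 160.3) CPM from 7 UMIs in library 1. In library 2 this class held 0 Tlr7 UMIs among 40502, with an interval reaching 91.1 CPM, which includes the library 1 value. Cluster 4 was itself lower in Tlr2 and Mefv (3.21% of all genes), with at most 3 UMIs of either in a library, and the Tlr2 call was lost under 4 settings in the population that took the place of cluster 4.

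The adaptor Myd88 (ENSMUSG00000032508, chr9:119335934-119341411, minus strand) was called higher in the dendritic lineage (3.8% of all genes), at 21.9 (7.11 to 51.1) and 16.01 (3.30 to 46.8) CPM, from only 5 and 3 UMIs. The call was lost at resolution 0.4 and with at least 500 genes per nucleus. The Myd88 level in cluster 0 was 6.81 (4.16 to 10.5) and 5.67 (3.73 to 8.24) CPM and overlapped the dendritic interval in both libraries. Tlr4 (ENSMUSG00000039005, chr4:66827584-66930284, plus strand) was called higher in no population. It was at 2.73 (1.18 to 5.37) and 2.73 (1.45 to 4.66) CPM in cluster 0 and at 6.06 and 5.79 CPM in GMP-like nuclei, with overlapping intervals. All 6 Tlr9 UMIs (ENSMUSG00000045322, chr9:106222598-106226883, plus strand) were in cluster 0, and B lymphoid and dendritic nuclei held none.

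**Figure D2:**
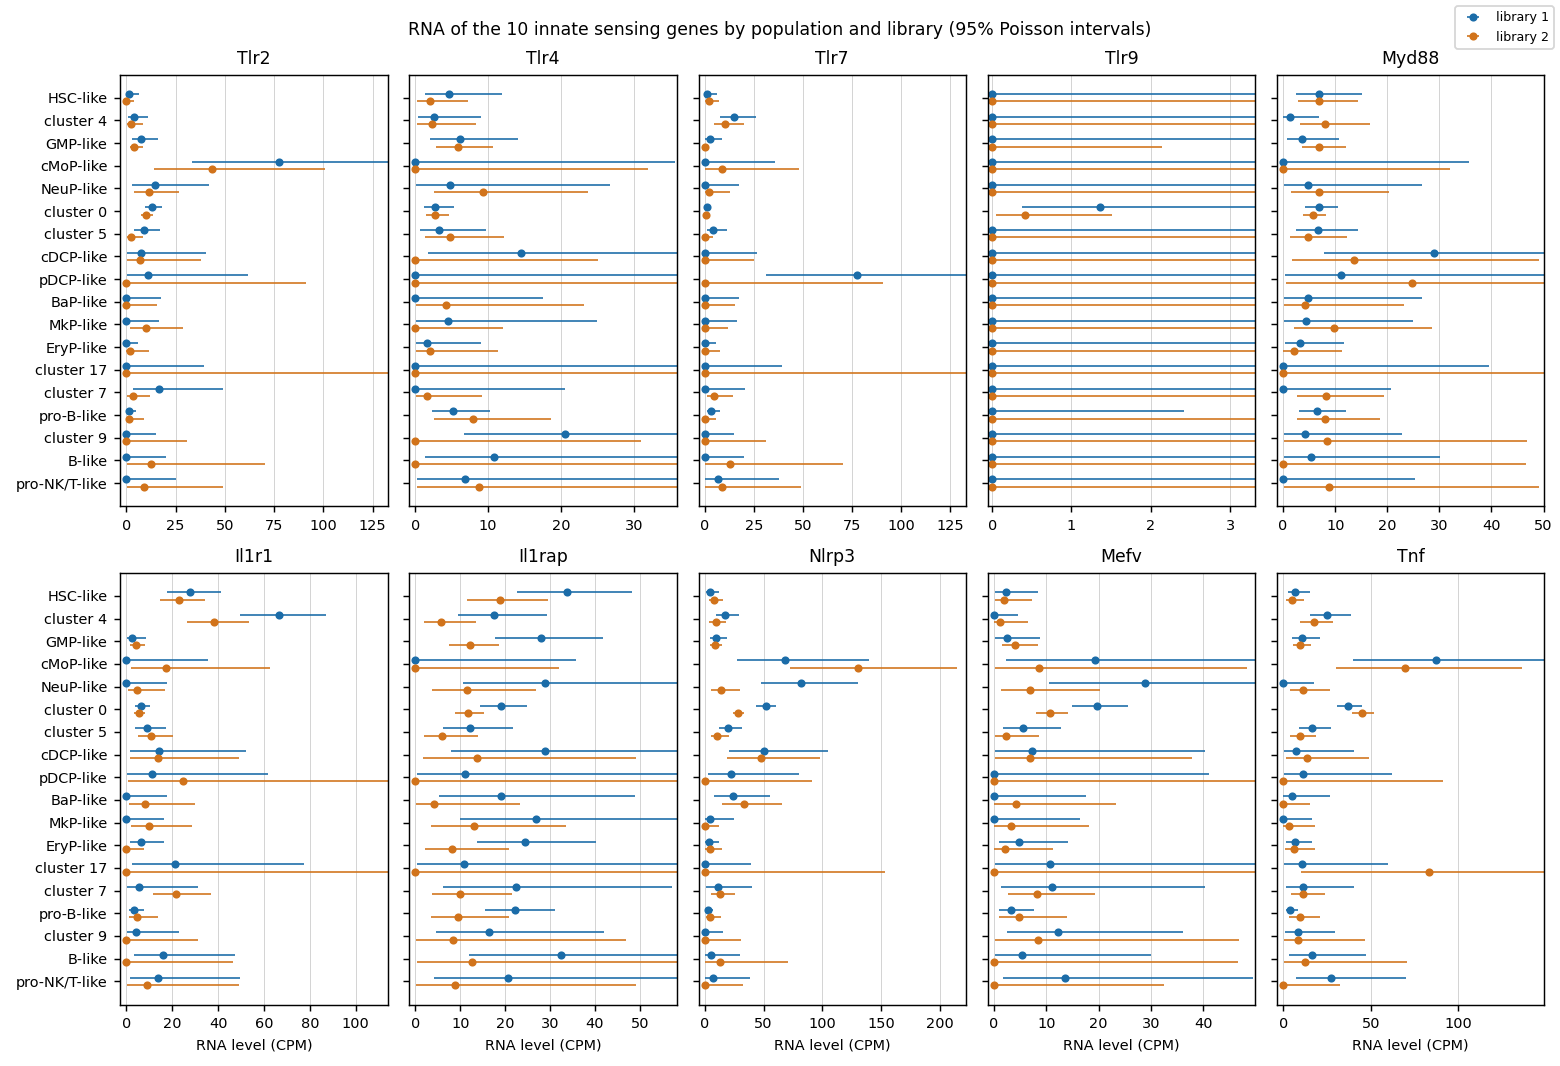
RNA level in CPM (horizontal axis, a scale per gene) of each of the 10 genes in 12 named classes and 6 unnamed clusters (vertical axis), with library 1 in blue and library 2 in orange. Bars are 95% Poisson intervals and some run past the panel edge. Il1r1 sits highest in cluster 4 in both libraries, at 66.4 and 38.2 CPM.

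Over all nuclei, none of the 9 genes compared differed 2-fold between the libraries. Most genes were lower in library 2 on the CPM scale, with a median ratio of 0.646, and 0.188% of 10614 genes were 2-fold higher and 17.6% were 2-fold lower there. Tnf had a library 2 to library 1 ratio of 1.26, or 1.95 relative to that median, which was above 97.6% of genes, and Myd88 had a ratio of 1.13, above 95.8% of genes. Il1rap and Tlr7 had the lowest ratios of the 9, at 0.509 and 0.516. Leaving the ribosomal RNA locus out of the totals moved the median to 0.786 and the Tnf ratio to 1.53. Within populations, the Tnf intervals of the libraries overlapped in cluster 0 (37.1 against 45.1 CPM) and in GMP-like nuclei (10.9 against 9.85 CPM). These are CPM values not set against the median ratio, so the overlap does not show like levels relative to other genes. The larger share of cluster 0 nuclei in library 2 moved with the Tnf total, and its part in it was not tested.

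Accessible chromatin near these genes was read at far greater depth than their RNA, and is given as counts per 1000000 counts in peaks (ATAC CPM). Summed over a 50 kb window, it ran from 29.0 ATAC CPM at Tlr7 to 477 at Tnf in library 1. These sums cover 15 peaks at Tlr7 and 34 at Tnf. They are not scaled to gene copies, and Tlr7 lies on the X chromosome, of which male mice carry 1. Of the 178 peaks, 166 had at least 100 counts in each library and were compared by the same 2-fold rule, and 56 of them were higher in at least 1 lineage or unnamed cluster. Cluster 0 had 16 (9.64%) higher peaks, against 4.73% of the 150626 peaks compared in all, and the granulocyte-monocyte lineage had 9 (5.42%, against 3.08%). Some of these peaks reached the minimum of 100 counts in a library only through the population itself. They lay near Tlr4, Tlr7, Il1r1 and Mefv for cluster 0 and near Tlr4 and Il1r1 for the granulocyte-monocyte lineage. The stem lineage had 3 (2.74% of all peaks), cluster 4 had 4 (3.71%), the B lymphoid lineage had 5 (5.86%), the NK and T lineage had 7 (3.82%) and the dendritic lineage had 6 (4.84%), shares that were near or below those over all peaks.

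Peaks near the innate sensing genes were most often closed in erythroid and megakaryocyte nuclei. In that lineage 70 of 166 peaks (42.2%) were lower, against 19.6% of all peaks, and none was higher, against 4.76% of all peaks. The 70 peaks came from all 10 genes, with 12 near Tlr2, 10 near Tlr9, 9 near Nlrp3, 3 near Il1rap and 1 near Myd88. In the B lymphoid lineage 58 of 166 peaks (34.9%) were lower, against 26.3% of all peaks. The NK and T lineage had 64 lower peaks (38.6%, against 29.5%), cluster 9 had 63 (38.0%, against 29.9%) and the basophil-mast lineage had 30 (18.1%, against 11.6%). The stem lineage had 17 (10.2%, against 7.99%) and cluster 4 had 26 (15.7%, against 10.5%). The share was below that of all peaks in the other populations, with 14 in the dendritic lineage (8.43%, against 15.4%), 34 in cluster 17 (20.5%, against 26.9%), 3 in the granulocyte-monocyte lineage (1.81%, against 3.78%), 3 in cluster 0 (1.81%, against 4.8%), 6 in cluster 5 (3.61%, against 4.22%) and 7 in cluster 7 (4.22%, against 4.47%). Summed over the 50 kb window, Tlr4 peaks in the erythroid-megakaryocyte lineage were at 8.10 and 16.2 ATAC CPM, or 0.199 and 0.367 of the other nuclei, and Tlr2 peaks were at 0.390 and 0.396. The sums at Myd88 and Tnf, where 4 and 9 other coding genes share the window, were between 0.863 and 1.14 of the other nuclei in the stem, granulocyte-monocyte, erythroid-megakaryocyte and B lymphoid lineages and cluster 0.

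**Figure D3:**
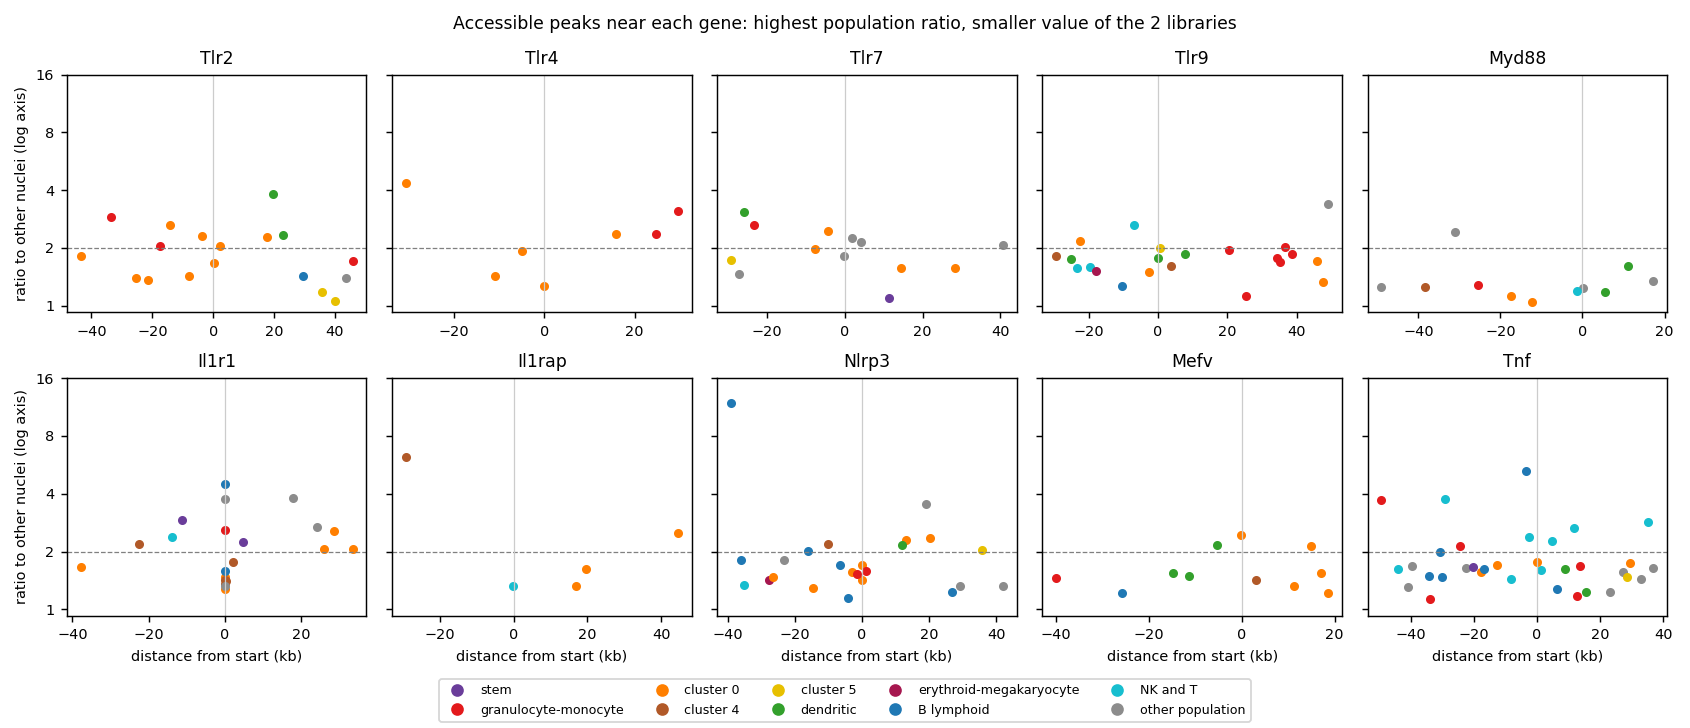
Each point is 1 of the 166 compared peaks, placed by its distance from the gene's start interval in kb (horizontal axis; negative is upstream, and peaks inside the interval are at 0) and by its ratio to the other nuclei on a log axis, in the population with the highest smaller value of the 2 libraries, which gives the color. The dashed line is 2-fold, and the highest points are a B lymphoid peak near Nlrp3 at 11.9 and a cluster 4 peak near Il1rap at 6.21.

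At Mefv, the promoter was more accessible in cluster 0, as its RNA was higher there. The promoter peak (chr16:3717713-3718613) was at 13.7 (12.02 to 15.5) and 13.6 (12.2 to 15.1) ATAC CPM in cluster 0, or 4.34-fold and 2.45-fold over the other nuclei. GMP-like nuclei were at 8.88 and 11.1, cMoP-like nuclei were at 20.7 and 14.5, pro-B-like nuclei were at 0.468 and 1.27, and MkP-like nuclei had 0 counts in both libraries, which allowed up to 3.31 and 2.40 ATAC CPM. Of the peaks annotated to the promoters of the 10 genes themselves, it was the only one past 2-fold in cluster 0 in both libraries. The Nlrp3 promoter peak at chr11:59542320-59543082, which holds both PU.1 matches shown above, was at 17.6 and 17.4 ATAC CPM in cluster 0 (2.11-fold and 1.71-fold), at 30.2 and 34.9 in cMoP-like nuclei, at 25.2 and 32.4 in cDCP-like nuclei and at 2.11 and 2.86 in pro-B-like nuclei. The Tnf promoter peak at chr17:35201702-35202565 was at 27.2 and 27.8 in cluster 0 (2.01-fold and 1.76-fold), at 34.2 and 35.8 in cMoP-like nuclei, at 11.7 and 12.7 in HSC-like nuclei and at 4.58 and 7.82 in EryP-like nuclei. The intervals of cluster 0 and HSC-like nuclei did not overlap at the Tnf promoter in either library.

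At Tlr2 and Tlr4, a distal peak had a larger ratio in cluster 0 than the promoter. The Tlr2 promoter peak (chr3:83841176-83842022) was open in every class, at 40.02 and 40.4 ATAC CPM in cluster 0 (1.72-fold and 1.66-fold) and still at 17.3 and 22.7 in EryP-like nuclei. A peak 3.5 kb upstream (chr3:83844875-83845758, intergenic) was at 28.1 and 27.6 in cluster 0, 3.78-fold and 2.31-fold over the other nuclei, at 21.9 and 23.6 in GMP-like nuclei and at 1.11 and 0.476 in pro-B-like nuclei. Another, 33.6 kb upstream (chr3:83874898-83875758), was higher in the granulocyte-monocyte lineage, by 4.35-fold and 2.89-fold, and within it was at 12.4 (6.76 to 20.8) and 6.85 (3.59 to 11.8) in NeuP-like nuclei and at 3.24 and 2.69 in GMP-like nuclei. In library 1 these intervals did not overlap, and in library 2 they did. At Tlr4, whose RNA was called higher in no population, the peak 30.7 kb upstream (chr4:66796444-66797352, intergenic) was at 6.08 (4.98 to 7.35) and 5.29 (4.44 to 6.26) in cluster 0, or 6.24-fold and 4.35-fold, while the promoter peak was 1.27-fold and 1.26-fold. Outside cluster 0 this upstream peak had 81 and 94 counts, below the minimum of 100, so that it was compared only through its counts in the cluster. Over all peaks called higher, the same held for 8 of 56 peaks in at least 1 library. Apart from an Il1rap peak described below, these were higher in cluster 0 or the granulocyte-monocyte lineage.

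The central 300 bases of both Tlr2 peaks are shown, with capitals for matches to TGTGGTT (RUNX factors), TGANTCA (AP-1), GGGANNTTC (NF-kB) and GAGGAAG (PU.1).
Tlr2, 3.5 kb upstream, chr3:83845167-83845466, plus strand: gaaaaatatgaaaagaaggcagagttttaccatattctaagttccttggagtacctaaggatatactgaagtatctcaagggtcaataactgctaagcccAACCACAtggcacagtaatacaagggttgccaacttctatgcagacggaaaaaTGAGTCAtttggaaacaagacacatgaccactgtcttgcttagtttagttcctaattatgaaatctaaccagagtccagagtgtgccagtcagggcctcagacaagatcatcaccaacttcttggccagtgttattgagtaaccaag
Tlr2, 33.6 kb upstream, chr3:83875178-83875477, plus strand: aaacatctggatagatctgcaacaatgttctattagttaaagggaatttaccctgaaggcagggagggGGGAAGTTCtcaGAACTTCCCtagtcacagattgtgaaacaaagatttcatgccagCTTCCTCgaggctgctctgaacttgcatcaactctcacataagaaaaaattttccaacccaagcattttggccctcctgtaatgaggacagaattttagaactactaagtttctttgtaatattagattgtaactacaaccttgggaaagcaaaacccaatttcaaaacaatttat
The nearer peak held 1 RUNX and 1 AP-1 match, which 12.03% and 11.4% of 174273 peak centers held as well. The farther one held a pair of NF-kB matches on opposite strands and 1 PU.1 match, found in 4.19% and 23.7% of peak centers. Of the 16 peaks higher in cluster 0, 6 held an AP-1 match and 3 an ETS-IRF match (GGAANNGAA), against 19.4% and 30.5% of all 7123 peaks higher in that cluster.

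Several peaks were most open where the assigned gene had little RNA. The largest ratio was at a peak 39.1 kb upstream of Nlrp3 in an exon of Zkscan17 (chr11:59501994-59502923), which was at 26.8 and 27.2 ATAC CPM in the B lymphoid lineage, 11.9-fold and 16.4-fold over the other nuclei, where Nlrp3 RNA was called lower. A peak 3.4 kb upstream of Tnf at the promoter of Lta, which encodes the related cytokine lymphotoxin alpha (chr17:35204985-35205799), was at 23.0 and 21.8, or 5.27-fold and 6.21-fold, in the same lineage. A further one, in an Il1r1 intron between its starts (chr1:40262683-40263592), was at 35.6 and 37.8, or 4.48-fold and 5.48-fold. Within the lineage, the Nlrp3 peak was open in both classes, with 27.2 and 26.2 ATAC CPM in pro-B-like and 23.4 and 37.8 in B-like nuclei. Outside it, pDCP-like nuclei were at 23.2 (12.50 to 39.2) and 9.77, and cluster 9, which counts among the other nuclei in these ratios, was at 23.3 and 20.2. Cluster 9 was at 26.5 and 22.3 at the Lta promoter peak and at 35.8 and 33.1 at the Il1r1 intron peak.

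Of the 5 peaks higher in the B lymphoid lineage, 3 held an EBF1 match in their central 300 bases. Over all peaks 10.4% did, and of the 8824 peaks higher in this lineage 25.5% did. The matches are shown in capitals within 30 bases.
Nlrp3, 39.1 kb upstream, chr11:59502522-59502551, plus strand: tactgctctctCCCAGGGGattttagatgt
Nlrp3, 16.2 kb upstream, chr11:59525291-59525320, plus strand: ttaggagtattCCCCAGGGagtcagaaaaa
Tnf, 3.4 kb upstream, chr17:35205255-35205284, plus strand: cttggggaagcCCCCAGGGcttagaagatg
The Il1r1 intron peak held no match to any of the 8 motifs searched in its center. It was also open in cluster 4, the population with the most Il1r1 RNA, at 22.1 (17.9 to 27.2) and 21.3 (17.1 to 26.2) ATAC CPM, and was lower in cluster 0 at 4.89 and 4.45.

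The 3 peaks higher in the stem lineage (1.81%, against 2.74% of all peaks) lay near Il1r1 and Il1rap. A peak 11.3 kb upstream of Il1r1 (chr1:40213281-40214208, intergenic) was at 6.98 (4.85 to 9.73) and 11.2 (8.45 to 14.6) in HSC-like nuclei, 2.93-fold and 3.29-fold over the other nuclei, and at 2.89 and 4.59 in cluster 4. An intronic Il1r1 peak (chr1:40270812-40271717) was 2.24-fold and 2.47-fold higher in HSC-like nuclei. An exonic Il1r1 peak downstream of its starts (chr1:40294576-40295499) was at 22.3 and 22.9 in cluster 0 and was 3.40-fold and 2.57-fold higher there than in the other nuclei, while Il1r1 RNA was called lower there. The Il1rap peak 29.3 kb upstream (chr16:26551973-26552886, intergenic) was at 6.26 (4.09 to 9.17) and 4.23 (2.49 to 6.73) in cluster 4, 9.83-fold and 6.21-fold over the other nuclei, and at 2.83 and 1.75 in HSC-like nuclei. It had 52 and 35 counts in cluster 4 and 70 and 82 outside it, and so reached the minimum only through that cluster. Its call in the stem lineage rested on 28 and 17 counts, with 94 and 100 outside that lineage. In library 1 it thus reached the minimum of 100 only through the stem nuclei as well. The Il1rap promoter was open in every population, from 10.7 to 44.6 ATAC CPM in library 1 and from 17.2 to 45.2 in library 2. The center of the upstream Il1rap peak, shown next, held 2 RUNX matches, and 22.9% of the 5586 peaks higher in cluster 4 and 20.8% of the 4128 higher in the stem lineage held at least 1.
Il1rap, 29.3 kb upstream, chr16:26552280-26552579, plus strand: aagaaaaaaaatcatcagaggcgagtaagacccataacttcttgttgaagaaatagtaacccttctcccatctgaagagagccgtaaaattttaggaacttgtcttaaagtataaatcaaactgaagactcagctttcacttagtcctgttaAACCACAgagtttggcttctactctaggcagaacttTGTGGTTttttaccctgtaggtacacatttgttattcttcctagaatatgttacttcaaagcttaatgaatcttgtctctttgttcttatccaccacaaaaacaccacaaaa

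**Figure D4:**
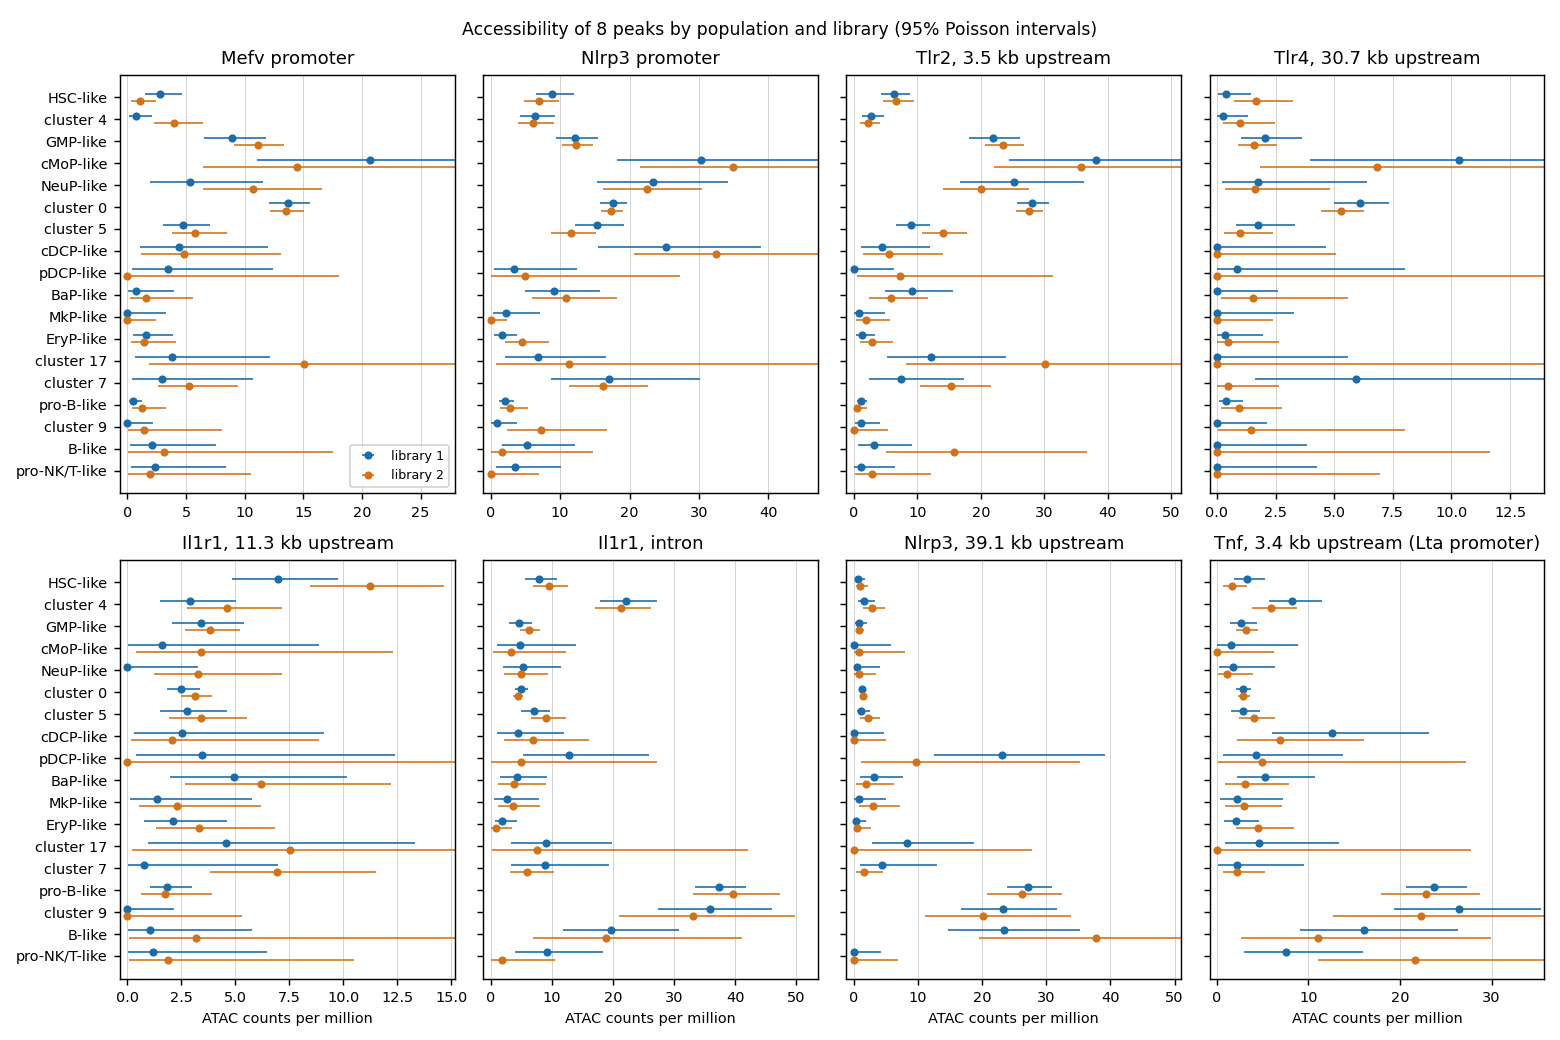
Accessibility of 8 peaks in ATAC CPM (horizontal axis, a scale per peak) in 12 named classes and 6 unnamed clusters (vertical axis), with library 1 in blue, library 2 in orange and 95% Poisson intervals as bars, some of which run past the edge. The Mefv, Tlr2 and Tlr4 peaks sit high in cluster 0 and cMoP-like nuclei, and the Il1r1 intron, upstream Nlrp3 and Lta promoter peaks sit high in pro-B-like nuclei and cluster 9.

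Tlr9 had an accessible promoter with almost no RNA. Its promoter peak (chr9:106222201-106222927) was at 57.7 (43.5 to 75.0) and 36.2 (18.4 to 64.0) ATAC CPM in B-like nuclei, at 54.9 (37.6 to 77.5) and 29.3 in pDCP-like nuclei, at 27.4 and 24.6 in pro-B-like nuclei and at 20.2 and 19.2 in cluster 0. In MkP-like nuclei it was at 0.448 and 1.95. The B-like class was highest in both libraries, and its interval overlapped that of pDCP-like nuclei in both. The 2 promoter peaks assigned to Myd88, which lie at the shared start region of Myd88 and Acaa1a, summed to 62.5 to 85.9 ATAC CPM across the 18 populations in library 1 and to 49.7 to 104 in library 2, and neither peak was called higher in any population.

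The other peaks with the most counts or the largest ratio near each gene were spread over several lineages. Near Tlr2, Tlr4 and Il1rap the peak with the most counts was the gene's own promoter, near Tlr7 it was intronic at 4.41 and 5.07 ATAC CPM over all nuclei, and near Il1r1 it was the exonic peak above. Near the other 5 genes it was the promoter of a neighbor, namely Twf2 at Tlr9, Oxsr1 at Myd88, Zkscan17 at Nlrp3, Zfp263 at Mefv and Prrc2a at Tnf. The dendritic lineage was highest at several weaker peaks. A peak in an intron of Gm7115 near Tlr2 (chr3:83821556-83822442) was at 4.36 and 8.60 ATAC CPM there, 3.82-fold and 6.82-fold over the other nuclei, and a peak in an intron of Prps2 near Tlr7 (chrX:167356014-167356761) was at 2.91 and 4.30, or 3.08-fold and 3.93-fold, from 8 counts in each library. A stronger one 5.3 kb upstream of Mefv (chr16:3722953-3723874, intergenic) was at 37.4 and 48.4, or 2.17-fold and 2.25-fold. Near Myd88 the largest lineage ratio, also dendritic, was 1.61 and 1.67 and did not reach 2. An intronic Tlr4 peak (chr4:66856744-66857644) was at 2.44 and 4.28 in the granulocyte-monocyte lineage, 3.09-fold and 3.35-fold, with 82 counts outside it in library 1. The basophil-mast lineage had 2 higher peaks (3.52% of all peaks), of which the intergenic one farthest from Tlr9 (chr9:106271217-106272073) was at 9.89 and 7.74, or 7.18-fold and 3.37-fold.

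Promoter accessibility and RNA were set side by side across the 18 populations as a description. Pearson's r between the log2 values was 0.52 and 0.30 for Mefv, 0.43 and 0.57 for Nlrp3 and 0.21 and 0.12 for Tnf in libraries 1 and 2. For Tlr2 it was 0.84 and 0.26, for Il1rap 0.60 and -0.17, and for Myd88 -0.28 and -0.52. Tlr4 was at 0.08 and -0.01, Tlr7 at 0.31 and 0.13, Il1r1 at 0.26 and 0.25, and Tlr9 at 0.12 and 0.18. The 18 points of a library share its preparation and differ in depth, and the values of Il1rap and, close to 0, of Tlr4 changed sign between the libraries.

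The genes whose RNA pattern was most like that of a member were ranked by Pearson's r of log2(CPM + 1) over the 12 named classes in 2 libraries (24 points, 6907 genes). Cluster 0, where Nlrp3 and Tnf were called higher, and cluster 4, where Il1r1 was highest, were not among these points. The likeness therefore does not cover the levels in those clusters. The ranking was done for the 4 genes with at least 200 UMIs. Nlrp3 was most like Plbd1 (r = 0.753), Arhgef11 (0.747) and Cfp (0.744), which encodes properdin, a complement protein. Tnf was most like Il10rb (0.788), a chain of the IL-10 receptor, Ubac1 (0.689) and Pom121 (0.687), and Il1r1 was most like Gm14636 (0.659), Rcc1l (0.653) and Ephb2 (0.643). For Il1rap the values were higher, with Arel1 at 0.908 and Pptc7 at 0.894. Points of 1 library share its depth, and the Il1rap level was lower in library 2 in every class except the cMoP-like, which held 0 UMIs in both.

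The related pathway genes were counted by the same rule. Of 92 listed genes 70 could be compared, none of the 8 further Toll-like receptors among them, and none was higher in cluster 0 (0.499% of all genes), where 7 were lower (5.74% of all genes). These included Il1r2, the decoy receptor for IL-1, at 1.36 and 2.31 CPM from 4 and 11 UMIs, and the IL-18 receptor gene Il18rap, at 5.11 and 4.41 CPM. Il1r2 was instead higher in the granulocyte-monocyte lineage, at 57.2 and 22.9 CPM against 4.26 and 3.61 CPM elsewhere, together with Lbp and Clec4e (1.7% of all genes). In cluster 4, 4 of 70 pathway genes were higher (3.72% of all genes), namely Il18rap, at 98.9 and 55.6 CPM (7.96-fold and 6.42-fold), its partner Il18r1, at 31.3 and 22.0 CPM, the inflammasome sensor Nlrp1b and the inhibitory receptor Sigirr. The stem lineage had 1 higher gene of 70 (2.85% of all genes), the RNA sensor Ddx58, at 26.7 and 11.9 CPM. The dendritic lineage had 2 (3.8% of all genes), the transcription factors Irf5, at 39.4 and 16.01 CPM, and Nfkb1, at 399 and 267 CPM. In the B lymphoid lineage 13 were lower (6.28% of all genes) and 3 were higher (4.65% of all genes), namely the adaptor Pik3ap1, at 195 and 80.8 CPM, the kinase Syk and the ubiquitin ligase Traf6. The NK and T lineage had 7 higher genes (5.56% of all genes), led by Il18r1, at 287 and 115 CPM, and the lymphotoxin gene Ltb, at 144 and 176 CPM. The basophil-mast lineage had 4 (2.63% of all genes were higher there), led by the IL-33 receptor Il1rl1, at 90.6 and 41.7 CPM. The erythroid-megakaryocyte lineage had 1 higher gene (3.82% of all genes), Il1rl1 again, at 40.5 and 22.6 CPM, and 15 lower ones (5.75% of all genes), among them Unc93b1, the chaperone of endosomal Toll-like receptors, at 22.6 and 26.4 CPM. In the stem, dendritic, B lymphoid and erythroid-megakaryocyte lineages the share of higher pathway genes was below that of all genes. Among the smaller unnamed clusters, cluster 9 had 4 higher genes (6.63% of all genes), namely Ltb, Birc3, Pik3ap1 and Mavs. Mavs had 2 and 1 UMIs there, and Ltb, Birc3 and Pik3ap1 had 4, 5 and 7 UMIs in library 2. Cluster 17 had Ticam2 and Pycard (2.1% of all genes), from at most 4 UMIs of either in a library, and clusters 5 and 7 had none (0.518% and 0.462% of all genes). Lower pathway genes numbered 12 in the NK and T lineage (15.2% of all genes), 8 in the dendritic (12.6%), 8 in the basophil-mast (11.7%), 3 in the stem (2.99%) and 1 in the granulocyte-monocyte lineage (4.19%). They numbered 5 in cluster 4 (3.21%), 7 in cluster 5 (4.74%), 6 in cluster 7 (7.07%), 10 in cluster 9 (12.3%) and 21 in cluster 17 (35.2%).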

How the data were processed

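RNA and accessible chromatin were measured in the same bone marrow nuclei. The authors deposited 1 matrix of counts, unnormalized UMIs per gene and ATAC counts per peak, made with Cell Ranger ARC 2.0.0 on GRCm38 and pooling both treatments under 2 barcode endings, and the submitters' processing notes also name Seurat 4.0.3 and Signac 1.3.0.

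Nuclei were barcodes in which 200 genes or more were detected and ATAC counts lay from 1000 to 50000. They were clustered in Seurat 5.3.0 (R 4.3.3) on 30 principal components and latent semantic components 2 to 30, joined by weighted nearest neighbors after anchor correction between libraries, at resolution 0.8 and with the linear algebra kernel fixed. A cluster was named from at least 3 raised markers, with at least 1 marker of that class among its 10 leading genes. Scrublet called 3 nuclei (0.0220%) doublets, so the caller had not worked and no nucleus was removed. UMIs and ATAC counts were summed per population and library in Python 3.11.15, scaled to 1000000 (CPM), and given exact Poisson intervals (ATAC on pairs of counts). Genes with at least 20 UMIs and peaks with at least 100 counts in each library were compared, against all other nuclei of the same library.

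With 1 sample per treatment, endings in no group and no replicates, no test was made and p-values are not given. The members and lists were chosen with earlier results of these data known. Named pathway genes were up to 5 past the fold per lineage, and named peaks were, per gene, the one with the most counts and the one with the largest lineage ratio. Of the genes ranked by likeness, 1 is not reported here. Promoter peaks and the other peaks named were chosen after their values were seen. The calling step was tested on simulated counts only for a population larger than any named lineage, which does not cover calls in small populations. Gene coordinates come from the GENCODE annotation of GRCm38, in which 32145 gene identifiers (99.6%) were found. Promoter sequences come from the RefSeq table of GRCm38.p6.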

Additional observations from a re-analysis of the deposited data

How the results depend on the processing

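No paired analysis was possible because no label ties a barcode ending to a sample, and no result comes from a test. The genes called higher in a named lineage rose from 3 to 6 at resolution 0.4 and to 6 at a 1.5-fold threshold, and lay between 2 and 4 under the other settings. Between the libraries, 2 genes passed at 1.5-fold and 0 at 2-fold. Pathway genes higher in a lineage fell from 19 to 7 with a minimum of 500 genes per nucleus, which removed most nuclei of library 2. Peaks higher in a lineage went from 31 to 8 with a window of 10 kb and to 47 at resolution 0.4. With unnamed clusters counted, 7 genes became 4 with the 500 gene minimum and 56 peaks became 16 with the 10 kb window, by its construction for the window. The cause of the other shifts was not tested. At resolution 0.4, cluster 0 joined the GMP-like nuclei, and Tlr2, Nlrp3, Mefv and Tnf were then called higher in the granulocyte-monocyte lineage. Tlr7 and Il1r1 were called higher in the stem lineage, whose HSC-like cluster then had leading genes of cluster 4. With the 500 gene minimum, a cluster with leading genes of cluster 0 was named cMoP-like. Tlr2, Nlrp3 and Tnf were then called higher in the granulocyte-monocyte lineage and Mefv was not. With ATAC limits on halved counts Mefv and Tnf were called in 1 cluster, Nlrp3 in another and Tlr2 in none. The stem call of Il1r1 was lost with the 500 gene minimum and with all features kept in the clustering, the cluster 4 call of Tlr7 with the 500 gene minimum and with high doublet scores removed, and the dendritic call of Myd88 at resolution 0.4 and with the 500 gene minimum. In the granulocyte-monocyte lineage, the lower call of Il1r1 was lost with all features kept, no correction and halved ATAC counts, and that of Tlr7 with the 500 gene minimum, no correction, halved ATAC counts, high doublet scores removed, the ribosomal locus left out and another kernel. The counts over unnamed clusters and another linear algebra kernel were added after seeing the data. With that kernel at least 87.6% of each cluster's nuclei stayed together and 7 genes were called, as before. A further kernel merged cluster 5 with the pDCP-like class, so pDCP-like and dendritic values rest on the clustering. Of 70 alternatives to 10 single values, 21 moved a value beyond its interval, and 10 of these left out the ribosomal RNA locus. Leaving that locus out of the totals raises every CPM by construction. Low UMI counts limited every RNA value, and the intervals cover counting error only.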
